A study of Mus musculus with 8 samples.

Results

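Expression of 8 striatum-enriched genes was followed in aged mice with and without an expanded CAG repeat in Htt. The genes were Actn2, Strn, Ppp1r16b, Dclk3, Syndig1l, Plxdc1, Spock3 and Slc35d3, for scaffold, membrane and secreted proteins and, in Dclk3, a kinase. They were taken by symbol, and every probe set assigned to exactly 1 gene with one of these symbols was used, which gave 14 of 45037 non-control probe sets. At the level of genes they are 8 of 18193, each represented by its probe set with the highest mean over all mice. The choice of genes used no value of the present comparison as a criterion, although the list was drawn up with earlier results of these data known. The striatum of each mouse was profiled on its own Affymetrix Mouse Genome 430 2.0 array. There were 4 CHL2 mutants, the females 141, 153 and 154 and the male 191. These are knock-in mice, made by placing 150 CAG repeats from exon 1 of the human Huntington's disease gene in the mouse's own Htt, here on both copies, so the expanded allele is under the control of the endogenous gene in every cell that uses it. There were 4 wild-type mice, the female 161 and the males 170, 180 and 200. All 8 were C57BL/6 X CBA F1 hybrids aged 22 months. The question is how striatal transcripts of aged knock-in mice differ from those of their wild-type counterparts.

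The striatum is built mainly of medium spiny neurons, inhibitory cells whose dendrites are covered with spines that receive glutamate input from the cortex and dopamine input from the midbrain. Scaffold proteins tie receptors and phosphatases of the spine to its actin skeleton, and surface and secreted proteins set how the cell meets its neighbours and the matrix around it. Loss of transcripts typical of these neurons is a well-known feature of Huntington's disease models. In whole tissue, fewer cells of a type and less RNA per cell cannot be told apart.

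All 8 genes had a log2 change below 0 in the mutants (48.8% of all genes did), and 7 of them fell at an adjusted p under 0.05, against 6.01% of all genes tested. The falls ranged from 2.56-fold for the calmodulin-binding scaffold gene Strn to 1.49-fold for the transmembrane protein gene Plxdc1, with Actn2, Syndig1l and Dclk3 also at least 2-fold lower (4 of 8 genes, against 0.66% of all genes). The median log2 change of the 8 genes was -1.08, beside 0.01 over all genes. The exception was Ppp1r16b, a phosphatase regulator gene with a change of the same size but with values that scattered widely within both groups. For the 7 genes that fell, the 4 mutant values lay below all 4 wild-type values, a pattern found in 9.27% of all genes. In 18193 genes, Strn ranked 42nd, Actn2 59th and Syndig1l 68th by size of fall. A count of 7 was also found without mutants 141, 153 or 154 and without wild-type 170, 180 or 200. It was 6 without mutant 191 and 5 without wild-type 161, each the only animal of its sex in its group, and 7 in both cases when sex was left out of those fits.

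Promoter sequence was found in the RefSeq tables (build GRCm38.p6) for 5 of the 8 genes. The 250 bases before the annotated start are shown for 4 genes that moved together, to set the promoters of transcripts with a shared fall beside each other. Capitals mark the GC box, GGGCGG searched on both strands, a motif bound by Sp1 family factors.
Actn2, chr13:12340733-12340982, minus strand: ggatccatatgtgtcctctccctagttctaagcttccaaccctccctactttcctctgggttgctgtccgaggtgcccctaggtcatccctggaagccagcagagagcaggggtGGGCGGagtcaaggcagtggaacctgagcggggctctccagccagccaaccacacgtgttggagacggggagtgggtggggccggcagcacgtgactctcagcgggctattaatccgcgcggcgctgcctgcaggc
Strn, chr17:78736562-78736811, minus strand: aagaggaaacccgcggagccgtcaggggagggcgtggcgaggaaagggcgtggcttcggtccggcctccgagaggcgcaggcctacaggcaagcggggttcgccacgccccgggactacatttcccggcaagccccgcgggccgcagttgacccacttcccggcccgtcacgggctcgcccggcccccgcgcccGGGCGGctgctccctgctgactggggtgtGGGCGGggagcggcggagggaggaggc
Spock3, first of 2 annotated starts, chr8:62950982-62951231, plus strand: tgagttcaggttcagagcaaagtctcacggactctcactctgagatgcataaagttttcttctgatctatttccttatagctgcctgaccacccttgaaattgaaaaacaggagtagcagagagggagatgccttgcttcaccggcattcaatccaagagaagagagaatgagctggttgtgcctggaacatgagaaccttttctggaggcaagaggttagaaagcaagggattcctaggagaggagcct
Slc35d3, chr10:19851460-19851709, minus strand: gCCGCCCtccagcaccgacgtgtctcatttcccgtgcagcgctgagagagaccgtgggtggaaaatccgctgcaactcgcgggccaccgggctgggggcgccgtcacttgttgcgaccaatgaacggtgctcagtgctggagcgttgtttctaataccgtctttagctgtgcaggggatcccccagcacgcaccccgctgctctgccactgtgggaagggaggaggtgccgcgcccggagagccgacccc

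These stretches differed from one another in the motifs they held. The window of Strn had 2 GC boxes, those of Actn2 and Slc35d3 had 1 each, and the windows of Spock3 and Ppp1r16b had 0. In total 3 of the 7 windows of the 5 genes held at least 1, beside 32.7% of the 32851 windows of the same length in the table. The core of the cyclic AMP response element, TGACG on either strand, was found at 2 places in the Strn window, at 1 in the Slc35d3 window and at 1 in a window of Ppp1r16b. These are 3 of the 7 windows, against 17.8% of all windows. The TATA box letters TATAAA were in 0 of the 7 windows of these genes and in 12.4% of all windows. None of the 3 motifs was found in all 4 of the genes shown.

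Actn2 encodes alpha-actinin-2, an actin cross-linker of the muscle Z disc that in neurons sits in dendritic spines and binds NMDA receptor subunits. On the log2 scale it stood at 7.35, 7.30, 7.30 and 7.63 in mutants 141, 153, 154 and 191, against 8.65, 8.69, 8.84 and 8.89 in wild-type 161, 170, 180 and 200. The groups were separated by a gap of 1.02, more than the spread within either group, and mutant 191 was the highest of the mutants. The log2 change adjusted for sex was -1.26 (SE 0.09, adjusted p = 2.08e-05), 2.39-fold lower. Actn2 is also a muscle gene, and markers of muscle were measured beside it. Of 7 muscle markers 2 fell and 0 rose, against 6.01% and 6.4% of all genes. They were Ryr1, for a calcium release channel, at 4.44 in mutants and 7.5 in wild-type mice, and the slow myosin gene Myh7. The muscle score was -0.45 to -0.10 in mutants and 0.05 to 0.92 in wild-type mice. Without Ryr1, an alternative chosen after seeing the data, the muscle score was -0.29 to 0.09 in mutants and -0.14 to 0.77 in wild-type mice, and the groups overlapped. Myh6 and Actc1, which mark heart muscle, had mean levels of 3.40 and 4.23 in mutants against 3.45 and 4.41 in wild-type mice, all near background. Acta1 and Ckm lay above background, at means of 6.20 and 6.16 in mutants against 6.63 and 6.16 in wild-type mice, and did not pass. The part of muscle in the fall of Actn2 was not tested.

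Strn encodes striatin, a calmodulin-binding scaffold of dendritic spines that is a regulatory subunit of protein phosphatase 2A and the core of the STRIPAK complex. Its brightest probe set gave 9.04, 8.98, 8.97 and 9.14 in the mutants in the same order of mice, against 10.29, 10.69, 10.55 and 10.42 in the wild-type mice. The mutants formed a tight group (SD 0.08), 1.16 log2 units under the lowest wild-type mouse at the nearest point. The change was -1.36 (SE 0.09, adjusted p = 1.61e-05). Strn had 3 probe sets. The next brightest had a log2 change of -0.96 (SE 0.10), with an adjusted p = 0.000812 over all probe sets. The dimmest, with 5 of its 8 values under 5 on the log2 scale (a signal of 32, near background), had a change of -0.54 with an adjusted p = 0.186, and its groups overlapped at wild-type 170. Without that mouse this probe set also passed (log2 change -0.68, adjusted p = 0.0119).

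**Figure D1:**
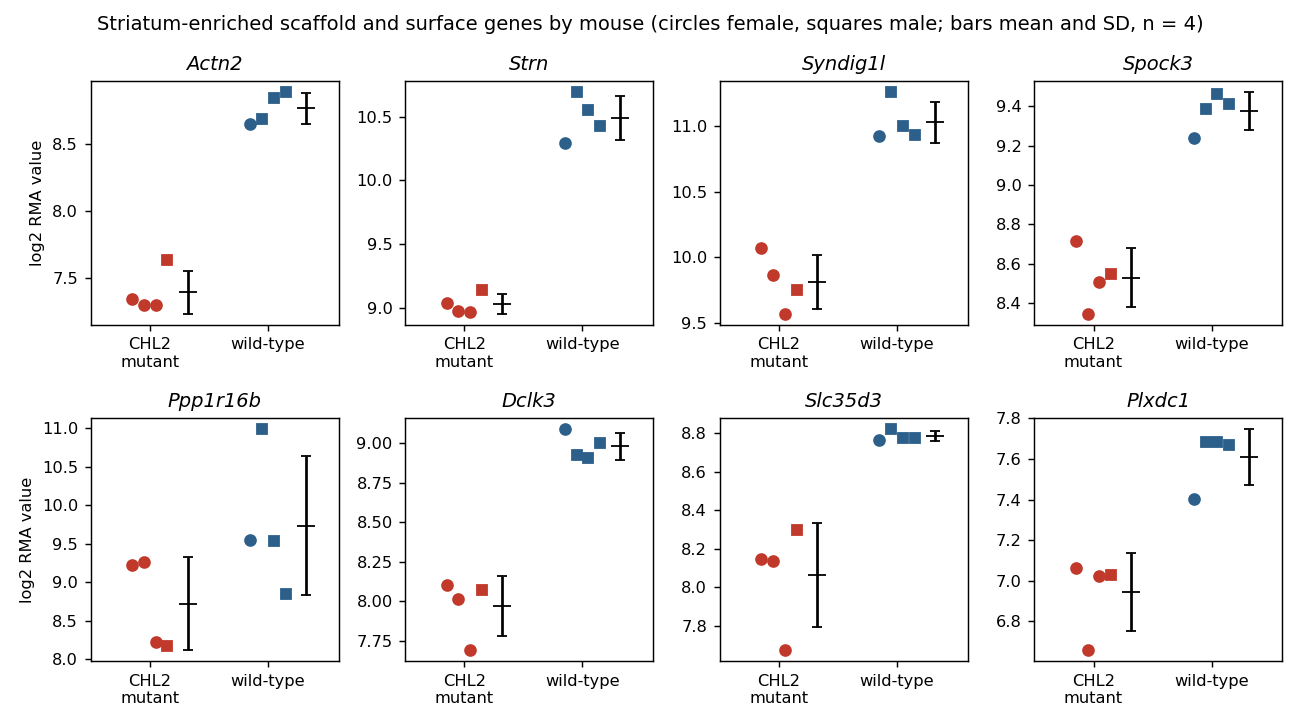
Log2 RMA values (y axis) of the 8 genes in 4 CHL2 mutant (left, red) and 4 wild-type striata (right, blue), 1 point per mouse, circles for females and squares for males, with the mean and SD of each group beside the points. The groups do not overlap in 7 panels, and in the panel of Ppp1r16b they do, with wild-type 170 at 10.99 and wild-type 200 at 8.85.

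Ppp1r16b encodes TIMAP, a membrane-anchored regulatory subunit of protein phosphatase 1 best known from endothelial cells. It measured 9.23, 9.26, 8.23 and 8.16 in mutants 141, 153, 154 and 191, against 9.55, 10.99, 9.54 and 8.85 in wild-type 161, 170, 180 and 200. Wild-type 200 lay below 2 of the mutants, so the groups overlapped, and the SD was 0.61 in mutants and 0.90 in wild-type mice, against 0.27 or less for every other of the 8 genes. The log2 change of -1.14 had an SE of 0.48 and a 95% interval of -2.19 to -0.08, and it did not pass (adjusted p = 0.160, unadjusted p = 0.0374). It passed in none of 24 alternative settings, with adjusted p from 0.0545 to 0.687. The highest value came from wild-type 170, whose array had a 3' minus 5' difference of 1.37 on the log2 scale for the Gapdh control probe sets and 2.65 for beta-actin, against 0.32 to 0.43 and 1.23 to 1.51 in the mutants and 0.32 to 0.34 and 1.36 to 1.43 in the other wild-type mice. Without that mouse the change of Ppp1r16b was -0.83 (adjusted p = 0.103), and the part of RNA quality in its spread was not tested. A second, dim probe set for the gene had a change of -0.41 (adjusted p = 0.0865) with 5 of 8 values under 5, and passed without mutant 141 (adjusted p = 0.0372, log2 change -0.46). Wild-type 170 had the highest wild-type value for 4 of the 8 genes, Ppp1r16b, Strn, Syndig1l and Slc35d3. Without it, Strn, Syndig1l and Slc35d3 still passed, with log2 changes of -1.32, -1.15 and -0.64.

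Dclk3 encodes a doublecortin-like kinase, a relative of the microtubule-associated kinases of developing neurons. Its single probe set read 8.10, 8.01, 7.69 and 8.07 in the mutants, against 9.09, 8.92, 8.91 and 9.0 in the wild-type mice. Mutant 154 was the lowest of its group, and the nearest mutant and wild-type values were 0.81 apart. The transcript was 2.02-fold lower (log2 change -1.02, SE 0.12, adjusted p = 0.000392).

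Syndig1l, also known as capucin for its enrichment in caudate and putamen, encodes a transmembrane protein related to SynDIG1, which associates with AMPA receptors. Values were 10.07, 9.86, 9.57 and 9.75 in the mutants, against 10.93, 11.26, 11.00 and 10.94 in the wild-type mice. The nearest mutant and wild-type mice were 0.86 apart, and mutant 154 was again the lowest. The fall was 2.31-fold (log2 change -1.21, SE 0.14, adjusted p = 0.000360). Its other probe set had a log2 change of -1.23 (SE 0.19), with an adjusted p = 0.00437 over all probe sets, so the 2 measurements of this transcript differed by less than either SE.

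Plxdc1 encodes plexin domain-containing protein 1, known as tumour endothelial marker 7 and in the striatum as a marker of indirect pathway neurons. It stood at 7.06, 6.66, 7.02 and 7.03 in the mutants, against 7.40, 7.68, 7.68 and 7.67 in the wild-type mice. In each group 1 mouse lay below 3 close ones, mutant 153 and wild-type 161. The log2 change of -0.57 (SE 0.11, adjusted p = 0.00808) was the smallest of the 8 genes. The call was lost without mutant 191 (log2 change -0.49, adjusted p = 0.143) and without wild-type 161 (-0.65, adjusted p = 0.0535). Its second probe set, at means of 5.39 in mutants and 5.41 in wild-type mice, had a change of 0.01 with a 95% interval of -0.20 to 0.21 (adjusted p = 0.983), and the change on the mean of both was -0.28. Where in the transcript each probe set lies was not analysed here.

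Because Plxdc1 and Ppp1r16b are also endothelial genes, vessel markers are given beside them. Of 10 endothelial and mural markers 1 fell and 0 rose, against 6.01% and 6.4% of all genes. That was the endothelial cadherin gene Cdh5, near background at 4.33 in mutants and 4.69 in wild-type mice. The list had a median log2 change of -0.25, and its score was -0.15 to -0.05 in mutants and 0.02 to 0.19 in wild-type mice, without overlap. The part of vessel cells in the change of Plxdc1 was not tested.

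Spock3 encodes testican-3, a proteoglycan secreted into the extracellular matrix of the brain. It measured 8.71, 8.35, 8.51 and 8.55 in the mutants, against 9.24, 9.39, 9.46 and 9.41 in the wild-type mice. The wild-type values were close together, and the nearest mutant was 0.53 below them. The fall was 1.74-fold (log2 change -0.80, SE 0.10, adjusted p = 0.000782). A second probe set lay between 3.5 and 3.85 in all 8 mice, near background, with a change of 0.08 (adjusted p = 0.800), and the mean of both gave -0.36 (adjusted p = 0.0338).

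Slc35d3 encodes a member of the nucleotide sugar transporter family that in mice is needed for platelet dense granules and for delivery of the D1 dopamine receptor to the cell surface, and its transcript marks direct pathway neurons. The values were 8.15, 8.14, 7.67 and 8.30 in the mutants, against 8.76, 8.82, 8.78 and 8.78 in the wild-type mice. The wild-type mice were almost equal, with an SD of 0.03, against 0.27 in the mutants, where mutant 154 was lowest. The log2 change was -0.64 (SE 0.13, adjusted p = 0.00973), 1.55-fold lower. Leaving out wild-type 161 ended this call, at a log2 change of -0.49 and an adjusted p = 0.174.

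**Figure D2:**
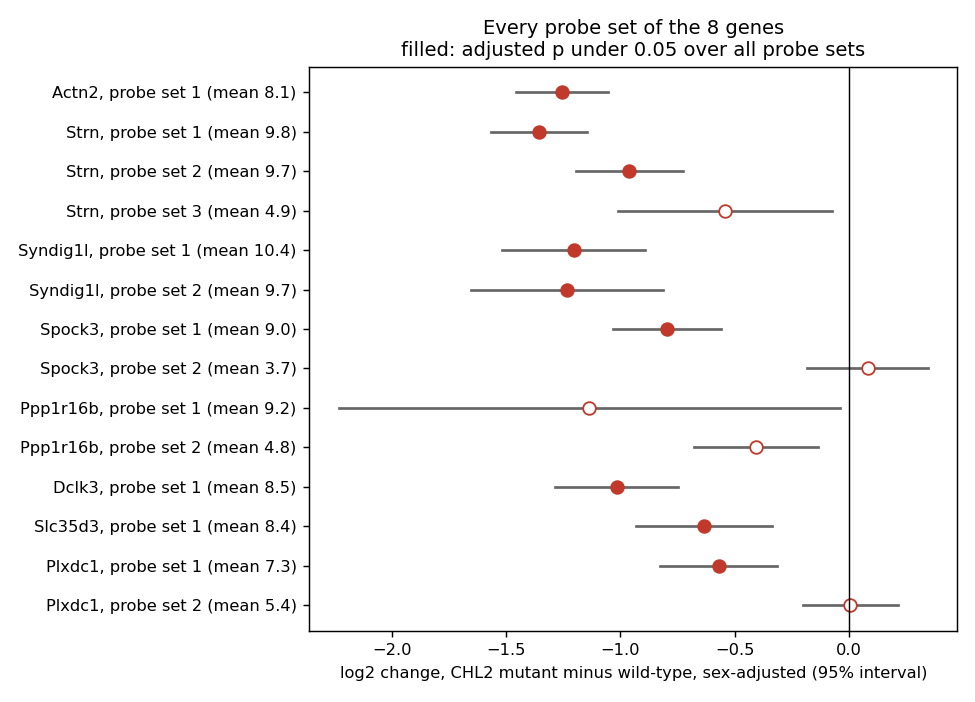
Sex-adjusted log2 change, CHL2 mutant minus wild-type (x axis), with its 95% interval for each of the 14 probe sets, ordered by gene and by brightness within a gene, with the mean log2 level of all mice in brackets. The 9 filled points have an adjusted p under 0.05, and each open point but 1 is a later probe set, dimmer than its gene's first, the exception being the first of Ppp1r16b.

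Taken as probe sets, 9 of 14 fell and 0 rose at an adjusted p under 0.05, beside 3.44% of all probe sets that fell and 3.26% that rose, and the values of 9 did not overlap, against 7.07% of all probe sets with lower mutants. The 2 with a change above 0 were the second ones of Spock3 and Plxdc1. Of the 5 that did not pass, 4 were the dimmest of their gene, and 3 of these had values under 5. Without mutant 191, 5 probe sets fell.

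The genes differed in how individual mice stood within their group. Mutant 154 had the lowest value of the mutants for 5 of the 8 genes and wild-type 161 the lowest of the wild-type mice for 6. The median deviation from the group mean was -0.17 for mutant 154 and -0.13 for wild-type 161, against -0.0035 to 0.13 for the other 6 mice. These same mice had the highest score for cortical pyramidal neuron markers of their group, 0.61 in mutant 154 and 0.59 in wild-type 161, where the others ranged from -0.83 to -0.05 in mutants and from -0.23 to 0.33 in wild-type mice. Slc17a7, the vesicular glutamate transporter of cortical neurons, was at 8.03 in mutant 154 and at 4.59 to 6.73 in the other mutants, and it was at 7.88 in wild-type 161, the only female of its group, and at 6.15, 7.43 and 6.46 in wild-type 170, 180 and 200. Wild-type 180 had the next highest cortical score of its group, 0.33, with a median deviation of 0.03 and 4 of the 8 genes above the group mean. Whether cortical tissue in the dissection bears on these lower values was not tested. Of 6 cortical markers measured 1 fell (6.01% of all genes did) and 0 rose. That was Fezf2 (log2 change -0.67, adjusted p = 0.0166), near background at 4.90 in mutants and 5.29 in wild-type mice, with groups that overlapped. The median log2 change of the list adjusted for sex was -0.48, while the scores of the groups overlapped. The lowest score, -0.83, was that of mutant 191, the only male mutant. Without adjustment for sex the group means differed by -0.39 for Fezf2 and -0.52 for Slc17a7, against -0.67 and -1.45 with it.

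**Figure D3:**
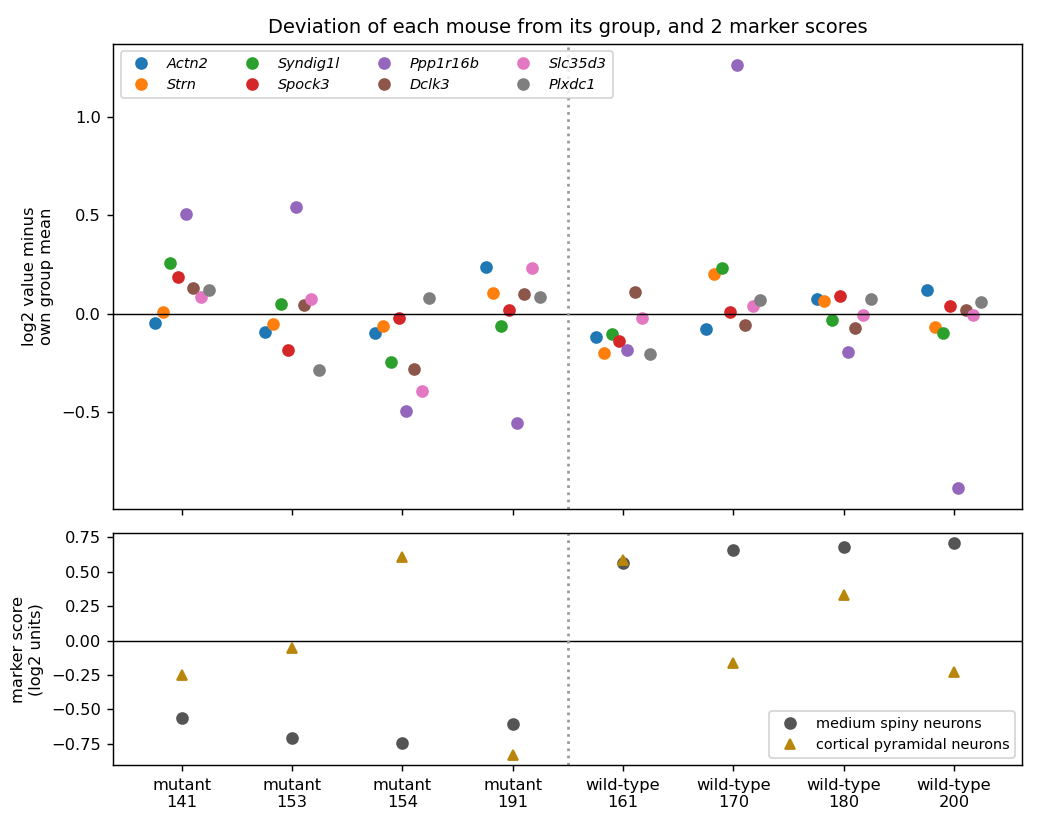
Upper panel, log2 value minus the mean of its own group (y axis) for the 8 genes in each mouse, mutants on the left of the dotted line. Lower panel, scores of medium spiny neuron and cortical pyramidal neuron markers in log2 units; mutant 154 and wild-type 161 have the highest cortical scores of their groups, and most of the 8 genes lie below 0 in them.

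Both sexes showed a lower mean in mutants for all 8 genes. The 3 female mutants lay below female wild-type 161 by 1.34 for Actn2, 1.30 for Strn, 1.09 for Syndig1l and 1.16 for Dclk3 on the log2 scale. Male mutant 191 lay below the mean of the 3 wild-type males by 1.18, 1.42, 1.32 and 0.87 for the same genes. No gene of the 8 passed a test of the interaction of genotype and sex, with an adjusted p of at least 0.973 in limma, while 0.0055% of all genes passed. At an unadjusted p under 0.05 the count was 0 of 8, against 5.04% of all genes. With 1 mouse in 2 of the 4 combinations this test has little precision, and for Ppp1r16b the interaction was 0.99 with an SE of 0.95. Females and males did not differ at an adjusted p under 0.05 for any of the 8 (0.0275% of all genes did). At an unadjusted p under 0.05, 2 of the 8 differed, against 10.6% of all genes: the female minus male difference was -0.24 for Actn2 (adjusted p = 0.389) and -0.20 for Strn (adjusted p = 0.465). An exact two-sided permutation test of the group means, without a term for sex, gave p = 0.143 for Ppp1r16b. For the other 7 genes it adds nothing to the lack of overlap, which by itself fixes its p at the smallest that 70 assignments allow, 0.0286.

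Other genes known as striatum-enriched fell with them. Of 26 such genes measured, 25 fell and 0 rose, against 6.01% and 6.4% of all genes, with a median log2 change of -0.92. This list, too, was drawn up with earlier results of these data known. Scn4b, a sodium channel beta subunit, was 5.63-fold lower (adjusted p = 5.53e-07), Rgs9, a regulator of dopamine receptor signalling, 2.91-fold lower (adjusted p = 1.41e-05), and Pcp4, a calmodulin regulator with the highest level of the list, 1.63-fold lower (adjusted p = 0.000253). The changes of the 8 genes lay inside the range of this list, -2.49 to -0.25. Of 7 measured medium spiny neuron markers 6 fell and 0 rose, with scores of -0.74 to -0.56 in mutants and 0.56 to 0.71 in wild-type mice. These 6 are also among the striatum-enriched genes just counted, so they are not a separate result. The other marker, Gad1, is not in that list and did not pass (log2 change -0.18, adjusted p = 0.321).

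Direct and indirect pathway neurons send their axons to different targets and can be set beside Slc35d3 and Plxdc1. Of 8 direct pathway markers 3 fell (6.01% of all genes did) and 0 rose. A change below 0 was found in 5 (48.8% of all genes), and the median log2 change of the markers was -0.23. Among them Chrm4 had every value under 5 (log2 change -0.19, adjusted p = 0.301). Drd1, for a dopamine receptor, was 2.36-fold lower (adjusted p = 8.62e-05). Pdyn, which encodes the precursor of dynorphin, was 2.04-fold lower (adjusted p = 0.00256), and Tac1, which encodes that of substance P, 1.27-fold (adjusted p = 0.0294). The transcription factor genes Eya1, Isl1 and Ebf1 had changes above 0 that did not pass: Eya1 0.32 (adjusted p = 0.0565), Isl1 0.26 (adjusted p = 0.102) and Ebf1 0.10 (adjusted p = 0.802). Up to 2 of these passed as higher in single alternatives, Eya1 in 4 of 24, Isl1 in 1 and Ebf1 in 1, while Isl1 and Ebf1 were below 0 in 2 alternatives each. The fold of Slc35d3, 1.55, lay between those of Pdyn and Tac1. Calls of Pdyn and Tac1 were lost without wild-type 161, where 1 marker fell, and that of Tac1 also without mutant 191 or wild-type 180. Of 5 indirect pathway markers measured 4 fell (6.01% of all genes did) and 0 rose, with a median of -1.42. One that fell, Upb1, was near background, with all 4 mutant values and 1 wild-type value under 5. Its call was lost with a floor at 32 and without mutant 191, where 3 markers fell. The receptor gene Gpr6 was 3.71-fold and the enkephalin precursor gene Penk 3.09-fold lower (adjusted p = 4.01e-06 for both). At 1.49-fold the change of Plxdc1 was smaller than that of either. Whether the changes of these genes differ from one another was not tested.

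**Figure D4:**
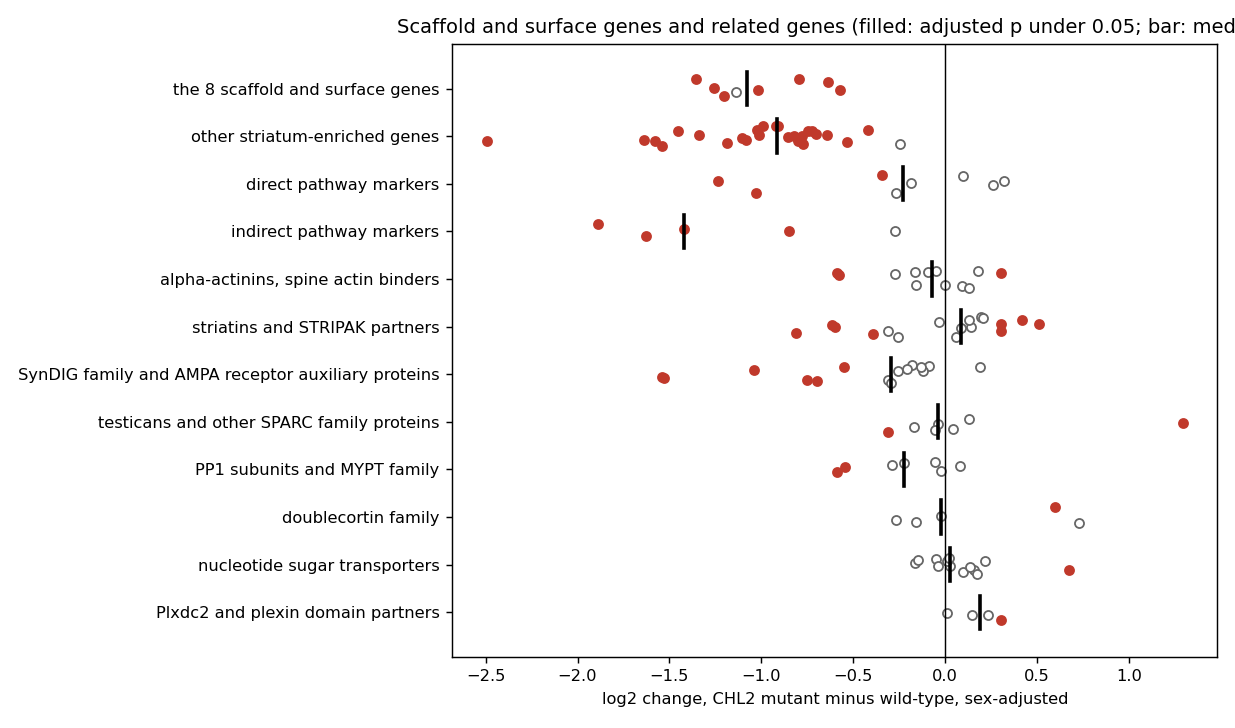
Sex-adjusted log2 change, CHL2 mutant minus wild-type (x axis), of the 8 genes and of 11 lists of related genes, 1 point per gene, filled where the adjusted p was under 0.05, with a bar at each median. Points of the 8 genes and of the other striatum-enriched genes lie left of 0, those of the SynDIG list lie left of 0 in 14 of 15 cases, and those of the Plxdc2 list lie right of it in 4 of 4.

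Family relatives and partners of the 8 genes were measured as well. Their counts stand beside 6.01% of all genes that fell and 6.4% that rose. Among 12 alpha-actinins and spine actin-binding proteins 2 fell and 1 rose, with a median of -0.07. Neurabin (Ppp1r9a), which targets protein phosphatase 1 to spines, was 1.49-fold lower (adjusted p = 0.00121), and the spine apparatus protein gene Synpo 1.5-fold lower (adjusted p = 0.0120). Synpo did not pass without mutant 191, with a floor at 32 or when its 2 probe sets, which differed in direction, were averaged. The 1 that rose was Cttn, given with the partners of Plxdc1. The other alpha-actinins did not pass: Actn1 had a log2 change of -0.28 (adjusted p = 0.0569), Actn4 of -0.10 (adjusted p = 0.541) and Actn3, near background, of 0.09 (adjusted p = 0.847).

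Partners of striatin went both ways. Of 17 genes for striatins and STRIPAK components, 4 fell and 4 rose, against 6.01% and 6.4% of all genes, with a median of 0.09. Those that rose were Ppp2r1b (log2 change 0.51), Stk24 (0.42), Mob4 (0.30) and Pdcd10 (0.30). The groups overlapped for Pdcd10, whose call was lost in 14 of 24 alternatives, and that of Mob4 was lost in 10. The largest fall was in the scaffold gene Strip2, 1.75-fold (adjusted p = 0.00205), followed by the membrane anchor gene Slmap, 1.53-fold (adjusted p = 0.000716). The call of Strip2 was lost without wild-type 161 (adjusted p = 0.0530). Strn3 and Strn4, the paralogs of Strn, had changes of 0.14 (adjusted p = 0.321) and -0.31 (adjusted p = 0.0768) and did not pass. Ppp2r1a, the phosphatase scaffold subunit with the highest level of the list, had a change of 0.06 with a 95% interval of -0.13 to 0.24. Without mutant 191, 3 fell and 0 rose, and without wild-type 161, 2 fell and 1 rose.

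Among the SynDIG family and other AMPA receptor auxiliary proteins, 6 of 15 fell (6.01% of all genes did) and 0 rose, with a median of -0.29. Sex-adjusted changes were below 0 in 14 of 15, against 48.8% of all genes. Before adjustment for sex, the mutant means of Cnih3 and Cacng8 were higher by 0.12 and 0.04. Of the 6 that fell, Nptx1 had groups that overlapped, and its call was lost in 12 of 24 alternatives. Gsg1l, an auxiliary subunit of AMPA receptors, was 2.91-fold lower (adjusted p = 5.30e-06), and the secreted pentraxin gene Nptx2, which clusters these receptors, 2.05-fold lower (adjusted p = 0.000214). Cnih2, the brightest of the list, had a change of -0.09 with a 95% interval of -0.27 to 0.10. Syndig1, the nearest relative of Syndig1l, had a change of -0.26 (adjusted p = 0.208). Without mutant 191 the count was 4.

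Of 7 testicans and other SPARC family genes, 1 fell and 1 rose, against 6.01% and 6.4% of all genes. Smoc1, a matricellular calcium-binding protein gene, rose to 7.40 ± 0.12 (SD, n = 4) in mutants, against 6.19 ± 0.26 in wild-type mice (log2 change 1.29, adjusted p = 0.000253). Sparc fell 1.24-fold (adjusted p = 0.0497), a call lost without any 1 of 7 mice, all but mutant 153. The testican genes Spock1 and Spock2 had changes of 0.04 and -0.04 and did not pass, and Sparcl1, the brightest of the list, had a change of -0.17 (adjusted p = 0.324). Of 7 genes for protein phosphatase 1 subunits and the MYPT family, which includes Ppp1r16b, 2 fell, against 6.01% of all genes. They were Ppp1ca, 1.5-fold (adjusted p = 0.00754), and Ppp1r12c, 1.46-fold (adjusted p = 0.00533). Both calls were lost without wild-type 161, and that of Ppp1ca without mutant 191. Ppp1cc, the brightest, had a change of 0.08 (adjusted p = 0.626).

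In the doublecortin family 1 of 5 rose and 0 fell, against 6.4% and 6.01% of all genes. That was Dcdc2a, at 5.20 ± 0.06 in mutants and 4.66 ± 0.17 in wild-type mice (SD, n = 4, adjusted p = 0.00387), near background, with 1 of 2 probe sets in the other direction, and the call was lost without wild-type 161. Dclk1, the brightest of the list, had a change of -0.27 (adjusted p = 0.106). Of 13 nucleotide sugar transporters of the SLC35 families 1 rose and 0 fell, a count of rises near the 6.4% of all genes. Slc35a3, a transporter of UDP-N-acetylglucosamine, rose to 7.61 ± 0.10 (SD, n = 4) in mutants, against 7.06 ± 0.19 in wild-type mice (adjusted p = 0.00136), while Slc35a5 and Slc35b1, with changes of 0.22 and 0.10, did not pass. Among Plxdc2 and the binding partners of plexin domain-containing proteins 1 of 4 rose, against 6.4% of all genes. That was the actin regulator gene Cttn, by 0.30 (adjusted p = 0.0419), a call lost without any 1 of 6 mice. Plxdc2 itself did not pass (log2 change 0.15), nor did the basement membrane gene Nid1 (0.24, adjusted p = 0.288).

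For each gene the 2 others with the most similar profile were found by the root-mean-square distance between log2 values centred on the gene's own mean over the 8 mice. Actn2 was nearest to Coch (0.05) and Drd1 (0.06), and Strn to Rgs4 (0.08) and Synpo2 (0.10). Syndig1l was nearest to Tesc (0.09) and Ido1 (0.12), and Dclk3 to Gpr83 (0.07) and Gng7 (0.10). Spock3 lay closest to Lipo3 (0.07) and Camkv (0.08), Slc35d3 to Mfge8 (0.10) and Zswim5 (0.10), and Plxdc1 to S100pbp (0.08) and Pxdn (0.08). Ppp1r16b had no near neighbour of this kind, since its closest gene, Gnb1, was 0.39 away. The distances include the difference between the groups.

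Marker lists of the other cell types of the tissue are given in the plot of marker scores. The groups overlapped for astrocytes, microglia, oligodendrocytes, cortical neurons and neurons of septum, thalamus and pallidum. Over all genes 6.01% fell, 6.4% rose and 48.8% had a change below 0. Of 7 astrocyte markers 1 rose, Gfap (log2 change 0.48, adjusted p = 0.0341), while 5 had a change below 0. Of 6 oligodendrocyte markers 1 fell, Mobp (log2 change -0.38, adjusted p = 0.0225). No microglia marker passed, nor did any of the septum, thalamus and pallidum list, where 4 of 6 means lay under 5. Scores of the groups did not overlap for oligodendrocyte precursors, at 0.05 to 0.16 in mutants and -0.15 to 0.02 in wild-type mice. Of these 5 markers 1 rose, Olig1 (log2 change 0.43, adjusted p = 0.0161). Olig2 had a change of 0.35 (adjusted p = 0.152), and Pdgfra and Cspg4 had changes of 0.05 and 0.01 (adjusted p = 0.788 and 0.981). Interneuron scores did not overlap either, at -0.14 to 0.0017 in mutants and 0.0065 to 0.12 in wild-type mice. Of 8 interneuron markers 1 fell, Nos1 (log2 change -0.43, adjusted p = 0.0119), with 1 of its 4 probe sets in the other direction. A change below 0 was found in 7 of the 8, and Chat and Slc5a7 had every value under 5. The part of precursors and interneurons in the falls of the 8 genes was not tested. Htt itself was 1.59-fold lower in mutants (adjusted p = 0.00101). Medians of the arrays lay between 4.95 and 4.98, and pairs of arrays correlated over all probe sets at 0.990 to 0.996 within groups and 0.983 to 0.991 between them. The number of mice limits the precision of every value.

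**Figure D5:**
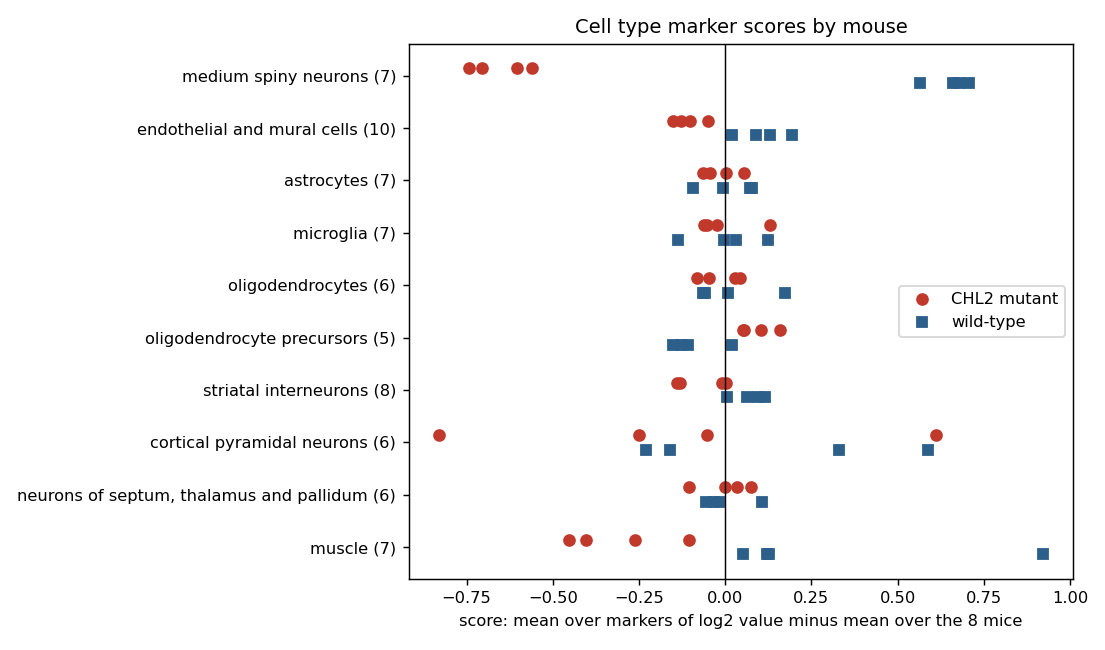
Score of each cell type marker list (x axis, the average over its markers of log2 values centred per gene on all 8 mice) in 4 CHL2 mutant (red circles) and 4 wild-type mice (blue squares), with the number of markers measured in brackets. The medium spiny neuron score is -0.74 to -0.56 in mutants and 0.56 to 0.71 in wild-type mice, and astrocyte, microglia and oligodendrocyte scores overlap.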

How the data were processed

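Striatal RNA of 8 mice was measured on 1 array each. The deposited values are log2 intensities per probe set that the authors made with RMA and the affy package, per the submitters' processing notes. Their versions were not stated. This method corrects background, equalises the distributions of the arrays and summarises probes, so a shift shared by most genes cannot be seen and changes of dim genes are compressed. Of 45101 probe sets, 64 controls were left out, and 34945 of the rest had 1 gene symbol in the platform annotation. Each gene was represented by its brightest single-symbol probe set. The main test was lmFit and eBayes of limma 3.58.1 in R 4.3.3 with genotype and recorded sex as terms and Benjamini-Hochberg adjustment over all 18193 genes, or over all 45037 probe sets where said. Log2 changes are mutant minus wild-type, and "rose" and "fell" mark an adjusted p under 0.05. The fit was tested on simulated data. The 8 genes and all lists were chosen with earlier results of these data known. Genes named from each related list were the 2 with the lowest adjusted p and the 1 with the highest level. Paralogs of the 8 genes, some other list members and single markers were added after their values were seen. The alternatives tried were omission of sex, a prior that was trended and robust, repeated quantile normalization, median centring, removal of genes below the median level, a floor at 32, array weights, averaged probe sets per gene, a threshold of 0.01, and each mouse left out with and without sex in the fit. Mouse numbers name separate animals. Scanner files were not used here, so background correction could not be varied.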

Additional observations from a re-analysis of the deposited data

Results flagged for a closer look

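In 48 groups of 4 values (14 probe sets and 10 marker scores in 2 genotypes), 4 held a mouse far from the other 3, and chance gives about 1 in 20. Actn2 stood at 7.63 in mutant 191, the only male mutant, against 7.30 to 7.35 in the other mutants. The brightest probe set of Plxdc1 stood at 6.66 in mutant 153, against 7.02 to 7.06 in the other mutants, and at 7.40 in wild-type 161, the only female of its group, while the 3 wild-type males had 7.67 to 7.68. The score of muscle markers was 0.92 in wild-type 200, with 0.05 to 0.13 in the remaining 3 of that group, and the titin gene Ttn was at 6.52 in that mouse.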

How the results depend on the processing

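Directions of all 8 genes were the same in the 24 alternatives. The falls of Actn2, Strn, Syndig1l, Spock3 and Dclk3 passed in all of them, and those of Slc35d3 and Plxdc1 in 22 each. Slc35d3 lost its call without wild-type 161 and with a floor at 32 (adjusted p = 0.0643), where none of its own values changed and 1600 genes passed. The count of genes past the threshold over the array was 2258, 1029 at an adjusted p under 0.01, and 702 to 2497 with 1 mouse left out, with or without sex in the fit; 702 passed without mutant 191 and 864 without wild-type 161. The number of probe sets of the 8 genes that fell was 9, and 5 to 10 with 1 mouse left out. The second probe set of Plxdc1, at 0.01, turned to -0.022 without sex in the fit and ran from -0.052 to 0.042 with 1 mouse left out. That of Spock3 ran from -0.0017 to 0.14. Neither was called in any of these. The causes were not tested. No paired analysis was possible because no mouse number is shared between the groups.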
